A study of Mus musculus with 6 samples.

Results

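The carboxylesterases described here are 10 genes of mouse liver, Ces1b, Ces1d, Ces1e, Ces1f, Ces1g, Ces2a, Ces2c, Ces2e, Ces3a and Ces3b. They were taken by gene symbol, and all probes on the array that carry one of these symbols were used, which gave 13 probes for the 10 genes, out of 55681 probes and 24239 symbols. Liver RNA was measured on Agilent 1-colour microarrays with 1 array per mouse. The groups were 3 control mice, which received corn oil, and 3 mice exposed to trichloroethylene (TCE), an industrial solvent, at 1000 mg/kg b.w. per day by gavage in the same corn oil. All were male B6C3F1 mice aged 7 weeks according to the labels, B6C3F1 being a hybrid strain much used in carcinogenicity testing, and both groups were dosed for 5 days. The question was which of these esterases differed in mRNA level between exposed and control livers.

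Carboxylesterases are serine hydrolases, most of them held in the endoplasmic reticulum, that cleave esters, amides and thioesters of drugs, pesticides and other foreign compounds and also act on lipids such as triacylglycerol and cholesteryl esters. In the liver they are counted among the enzymes of first-phase drug metabolism and of lipid mobilization for lipoprotein assembly. The mouse genes arose by repeated duplication and stand in tandem arrays on chromosome 8, so that neighbouring members have similar transcripts. Several of them are known targets of the xenobiotic receptors CAR and PXR.

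Because of this likeness, the probe sequences set what each value can mean. Each probe is 60 bases long, and its position is given on mm9. The probe of Ces2a lies at chr8:107265289-107265348 on the + strand, the brightest probe of Ces2c at chr8:107378105-107378164 on the + strand, and a probe with no gene symbol at chr8:107199432-107199491 on the - strand, 65798 bases before the Ces2a probe. They are shown because their changes under TCE were of like size. Capitals mark the 22 bases that are identical in all 3, and of the Ces2a probe only the first 28 bases, which hold them, are printed.
Ces2a: TTCTCAgGACAAGCAtgcaGAGCTgTAG
Ces2c: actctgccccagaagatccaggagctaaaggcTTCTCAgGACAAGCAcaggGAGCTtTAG
no symbol: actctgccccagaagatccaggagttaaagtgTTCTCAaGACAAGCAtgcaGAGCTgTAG

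The Ces2a probe shared 27 of these 28 bases with the probe that has no symbol, and 23 of them with the Ces2c probe. The Ces2c probe and the probe without a symbol were identical at 51 of 60 bases. A transcript of one of these loci could therefore give signal on the probe of another, and how much it did so was not tested.

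In the Ces1 array, the probe of Ces1b stands next to those of Ces1c, which encodes the carboxylesterase secreted into mouse plasma and is not among the 10 genes, and Ces1d. The Ces1b probe maps to chr8:95581314-95584247, the Ces1c probe to chr8:95624607-95628058 and the Ces1d probe to chr8:95693648-95694933, all on the - strand. Each span is longer than the probe, which places these probes across an intron. Capitals in Ces1b and Ces1c mark the bases that the pair shares, and in Ces1d those that it shares with Ces1c. These 3 are shown since Ces1b had the lowest fitted change of the 10 genes, while those of its closest relatives on the array, Ces1c and Ces1d, were -0.34 and -0.20.
Ces1b: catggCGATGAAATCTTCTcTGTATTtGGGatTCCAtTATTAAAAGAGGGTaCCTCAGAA
Ces1c: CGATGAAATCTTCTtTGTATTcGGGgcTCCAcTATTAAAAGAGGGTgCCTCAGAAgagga
Ces1d: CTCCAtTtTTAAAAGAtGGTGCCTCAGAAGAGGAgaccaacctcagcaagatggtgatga

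Of the best ungapped segment of 55 bases, Ces1b and Ces1c shared 49. Ces1c and Ces1d shared 31 of 34 bases, and Ces1b and Ces1d 25 of 28. Of 248 pairs of probes of different carboxylesterase genes, 10 had such a segment with at least 15 more matches than mismatches, and the median pair shared 8 bases. The probes of Ces1e, Ces1f, Ces1g, Ces2e, Ces3a and Ces3b were in none of the 10 pairs. Probes were compared only with probes and not with transcripts, so this does not show that they are specific.

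**Figure D1:**
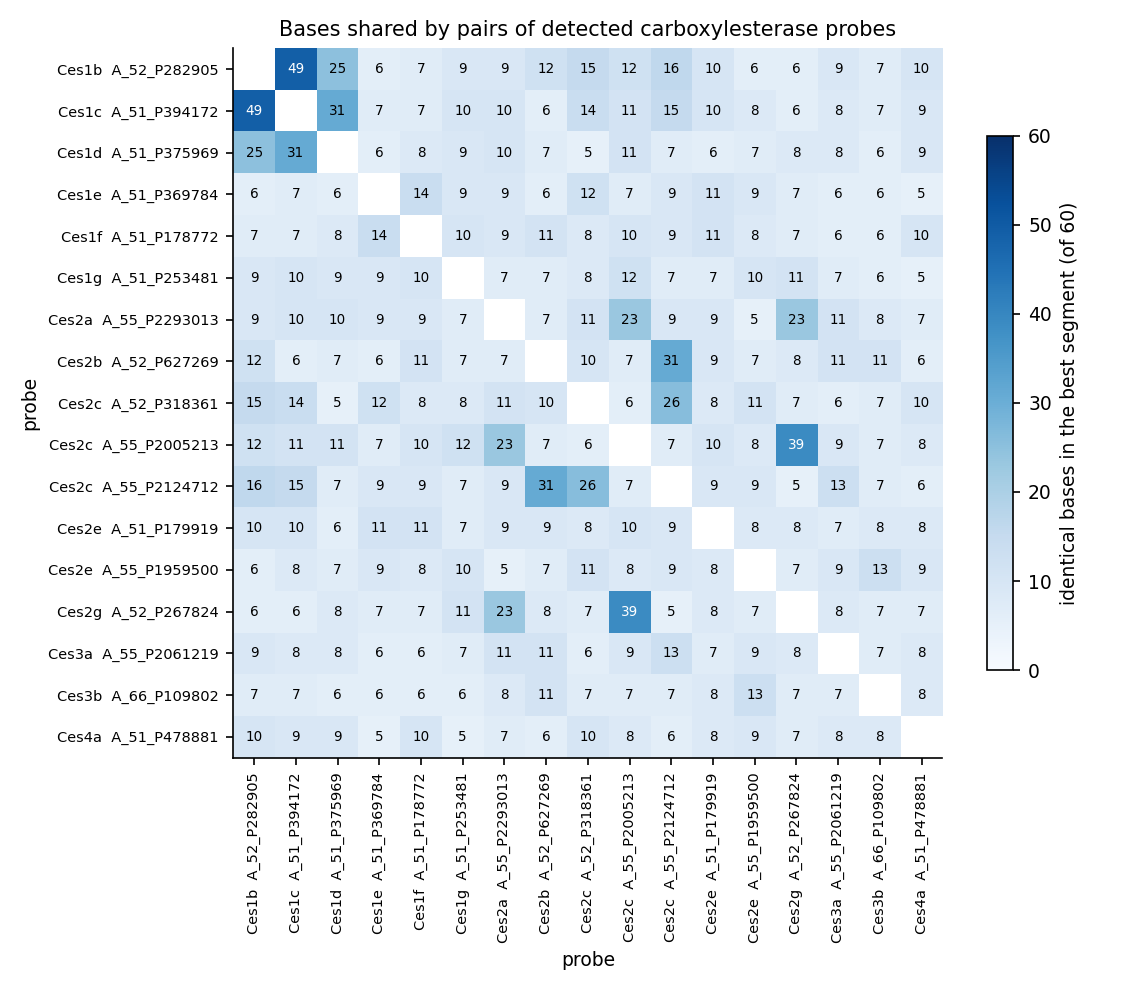
Number of identical bases in the best ungapped segment between each pair of the 17 detected carboxylesterase probes, of 60 bases each (colour scale and printed number, empty on the diagonal). The darkest pairs are Ces1b with Ces1c, at 49 bases, Ces2c with Ces2g, at 39, and Ces1c with Ces1d and Ces2b with Ces2c, at 31 each.

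The array's own annotation gave the same picture for some probes and added others. By the RefSeq transcripts that it lists for each probe, 8 of the 10 genes were represented by a probe of 1 gene. The brightest Ces2c probe is listed for Ces2b, Ces2c and the pseudogene Ces2d-ps together, and the Ces3a probe for Ces3a and Ces3b. Values of these 2 probes are therefore those of the listed genes jointly.

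All 13 probes were detected, which here means that in control mice, in TCE mice or in both, each of the 3 arrays gave a signal well above background, and no spot was saturated. Fitted differences come from limma on log2 signals after quantile normalization, with p values adjusted by Benjamini-Hochberg over all 22731 detected probes. A gene was called changed when it differed at least 2-fold and its adjusted p did not exceed 0.05, and a gene with several probes was represented by its brightest one. By this rule Ces2a was down-regulated in mice exposed to TCE and the other 9 genes did not pass. That is 1 of 10 genes lower, where 0.383% of all detected probes were lower, and 0 of 10 higher, where 1.03% were. With the adjusted p alone the counts were again 1 lower and 0 higher, against 0.576% and 1.43% of all detected probes. At an unadjusted limma p of 0.05 or less 4 genes were lower (Ces1b, Ces2a, Ces2c and Ces3b) and 0 higher, against a background of 6.95% and 11.0%. In the same 4 genes every TCE mouse was below every control mouse, and in Ces2e every TCE mouse was above, whereas 10.2% and 15.5% of all detected probes showed such a separation in the one and the other direction.

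**Figure D2:**
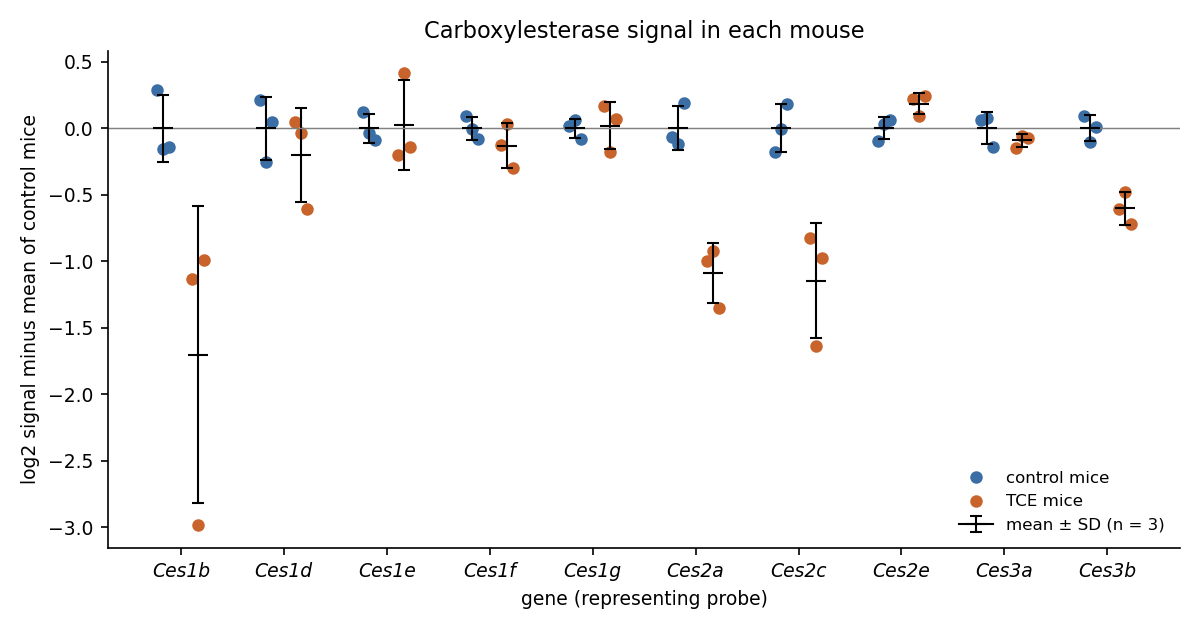
Log2 signal of the representing probe of each of the 10 genes in each mouse, less the mean of the 3 control mice, with the mean and SD of each group (n = 3). The TCE mice lie apart from the control mice and lower for Ces1b, Ces2a, Ces2c and Ces3b, and TCE mouse 2 is the lowest for Ces1b and Ces2c.

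Ces2a encodes an endoplasmic reticulum esterase of the second subfamily, which in general favours substrates with a small acyl group. Its log2 signal was 16.39, 16.34 and 16.65 in control mice 1 to 3 and 15.46, 15.53 and 15.11 in TCE mice 1 to 3. All TCE mice were below all control mice, and the gap between the groups was wider than the range within either. Ces2a fell by 1.09 on the log2 scale (SE 0.16, 95% interval -1.48 to -0.70), a fold change of 2.13, with a limma adjusted p of 0.0314. The call was lost when any 1 of the 6 mice was left out: the change then lay between -1.17 and -0.97 and the limma adjusted p between 0.0619 and 0.117. Control mouse 1 was alone on its slide, and within the other slide, that is without control mouse 1, the change was -1.12 with a limma adjusted p of 0.103.

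The probe with no symbol gave a difference of like size. It was chosen after its values were seen, for its match to Ces2a and Ces2c, and is not one of the 13. Its log2 signal was 14.52, 14.75 and 14.74 in control mice and 13.78, 13.86 and 13.62 in TCE mice, with a spread between mice of the same group well below the gap. The change was -0.92 (SE 0.13) with a limma adjusted p of 0.0280, at a fold change of 1.89 that stayed under the fold limit. Here too the adjusted p rose above 0.05 without any 1 of the mice, to between 0.0589 and 0.127 by limma.

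Ces2c encodes an enzyme of the same subfamily, known as an acylcarnitine hydrolase. Its brightest probe gave 15.19, 15.36 and 15.55 in control mice and 14.54, 13.73 and 14.40 in TCE mice. The groups did not overlap, and TCE mouse 2 was lowest. The change was -1.15 (SE 0.24, 95% interval -1.71 to -0.58), as large as that of Ces2a, but with more spread between the TCE mice, and the limma adjusted p was 0.0743. It was at or below 0.05 under 3 of 17 alternatives, in a range of 0.0446 to 0.229 by limma.

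The other Ces2c probes, at chr8:107378258-107378317 and chr8:107378292-107378351, share 26 genome positions with each other and are listed for Ces2c and Ces2d-ps but not for Ces2b. They gave smaller differences. The first had values of 12.02, 12.71 and 12.63 in control mice and 11.97, 11.81 and 12.12 in TCE mice, a change of -0.48 (SE 0.21, limma adjusted p 0.300). The second had 10.89, 11.63 and 11.52 against 10.92, 10.45 and 10.89, a change of -0.59 (SE 0.24, limma adjusted p 0.270). On both probes control mouse 1, which was alone on its slide, was near the TCE mice, so the groups overlapped. The other control mice were above all TCE mice on both. The probes of Ces2c thus disagreed in the size of the difference, and the part of this 1 mouse in that was not tested. On the brightest probe, too, it was the lowest of the control mice. The first of them has a stretch of 24 bases that is identical in the Ces2b probe, the longest run shared by probes of different genes of the family, and it is printed for that reason.
shared by Ces2b and Ces2c: TGTCACCTCAGTCTTTGAGCTTTC

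Ces2e, another member of the same array of genes, lies at chr8:107458508-107458567 by its brightest probe and did not follow Ces2a. It gave 14.37, 14.50 and 14.52 in control mice and 14.68, 14.56 and 14.71 in TCE mice. Every TCE mouse was slightly above every control mouse. The change of 0.19 (SE 0.11, 95% interval -0.08 to 0.46) had a limma adjusted p of 0.445, and the interval lies within a 2-fold change in either direction. Its second probe, far dimmer, gave a change of 0.11 (SE 0.21, limma adjusted p 0.826) with overlapping groups.

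Within the same mice, the change of Ces2a less that of Ces2e was -1.22, -1.02 and -1.59 in TCE mice 1 to 3, where the control mice lay between -0.15 and 0.13. For Ces2c less Ces2e the values were -1.05, -1.73 and -1.22, with control mice between -0.08 and 0.12. In both pairs all TCE mice were below all control mice, which had to follow from the separation of the single genes given above. These pairs, like those of Ces3b with Ces3a and Ces1b with Ces1d, were chosen after the values were seen, and the differences are given without a test.

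**Figure D3:**
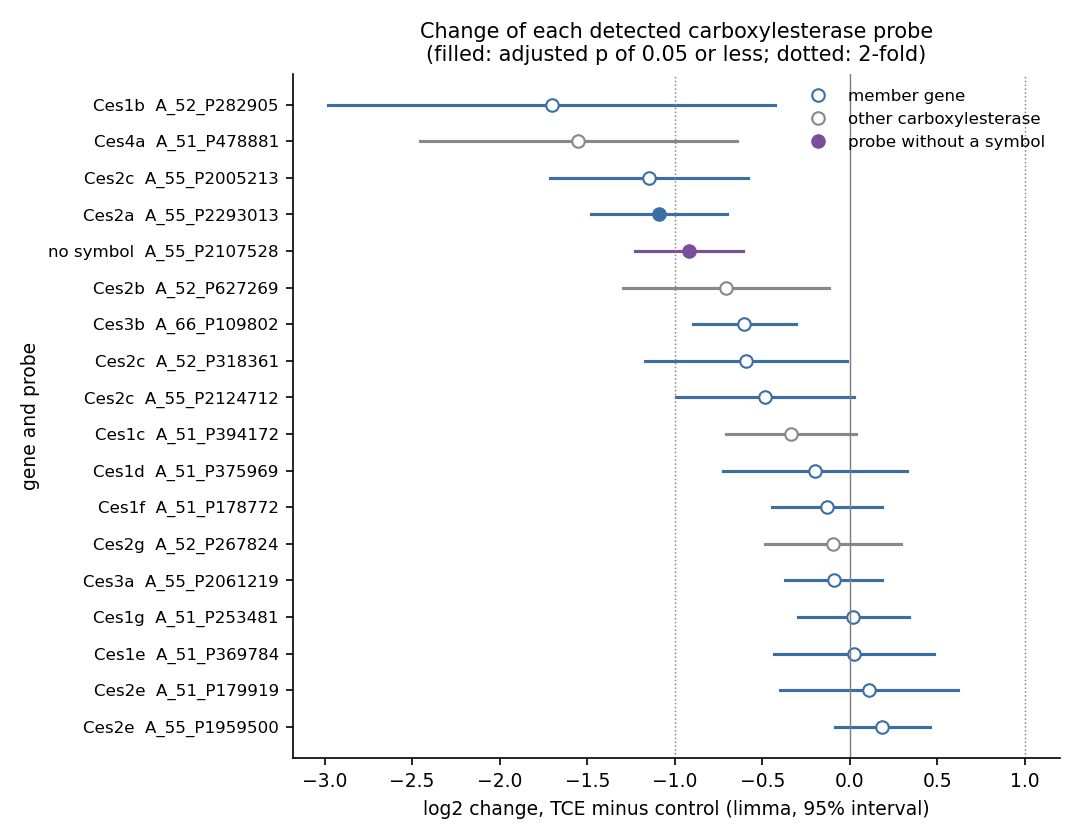
Log2 change, TCE minus control, with the 95% interval from limma for the 17 detected carboxylesterase probes and the probe without a symbol (n = 3 mice a group). Filled points mark an adjusted p of 0.05 or less, reached by Ces2a and the probe without a symbol, and dotted lines mark a 2-fold change.

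Ces3b and Ces3a encode liver esterases and stand further along the same array of genes. The Ces3b probe, at chr8:107615484-107615543, gave 15.56, 15.37 and 15.48 in control mice and 14.86, 14.99 and 14.75 in TCE mice. The values of each group lay close together and the groups did not overlap. The change was -0.60 (SE 0.12, 95% interval -0.90 to -0.31) with a limma adjusted p of 0.0725, which under 17 alternatives ranged from 0.0285 to 0.201 and was at or below 0.05 in 3. The interval ends before a 2-fold change.

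The Ces3a probe, at chr8:107582236-107582295 and listed for both genes, gave 17.78, 17.81 and 17.59 in control mice and 17.58, 17.67 and 17.65 in TCE mice. These overlapped, and the change was -0.09 (SE 0.11, 95% interval -0.37 to 0.18) with a limma adjusted p of 0.718. The change of Ces3b less that of Ces3a was -0.46, -0.42 and -0.65 in the TCE mice, where the control mice lay between -0.18 and 0.15.

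Of the Ces1 genes, Ces1b had the largest difference and the least even one. Its probe gave 13.55, 13.11 and 13.13 in control mice and 12.13, 10.28 and 12.27 in TCE mice. All TCE mice were lower, with TCE mouse 2 far below the other two. The change was -1.70 (SE 0.53, 95% interval -2.98 to -0.43) with a limma adjusted p of 0.174, and 0 of 17 alternatives brought it to 0.05 or less. Without TCE mouse 2 the change was -1.07 with a limma adjusted p of 0.0800.

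Ces1d encodes triacylglycerol hydrolase, the enzyme that mobilizes stored triacylglycerol for the assembly of very low density lipoprotein. Its probe gave 16.07, 15.60 and 15.90 in control mice and 15.90, 15.82 and 15.25 in TCE mice, which overlapped. The change was -0.20 (SE 0.22, 95% interval -0.73 to 0.33) with a limma adjusted p of 0.676. Set against Ces1d in the same mice, Ces1b changed by -1.18, -2.95 and -0.38, where the control mice lay between -0.18 and 0.10.

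The remaining 3 genes of the first subfamily differed little between the groups. Ces1e encodes egasyn, which holds beta-glucuronidase in the endoplasmic reticulum. Its probe at chr8:95725207-95725266 gave 14.85, 14.70 and 14.64 in control mice and 14.53, 15.14 and 14.59 in TCE mice, with TCE mouse 2 the highest of the 6. The change was 0.02 (SE 0.19, 95% interval -0.43 to 0.48, limma adjusted p 0.966).

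Ces1f encodes a further triacylglycerol hydrolase of liver. Its probe at chr8:95780225-95780284 gave 15.30, 15.21 and 15.13 against 15.08, 15.25 and 14.91, a change of -0.13 (SE 0.13, 95% interval -0.45 to 0.18, limma adjusted p 0.647). Ces1g encodes an esterase of liver lipid metabolism, and its probe at chr8:95826722-95826781 gave 12.05, 12.09 and 11.95 against 12.20, 11.85 and 12.10, a change of 0.02 (SE 0.13, 95% interval -0.30 to 0.34, limma adjusted p 0.956). In all 3 genes the groups overlapped and the interval lay within a 2-fold change in either direction. Such an interval bounds the difference and does not show that the groups were alike.

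Over the 10 genes the changes ran from -1.70 to 0.19, and 7 were below 0. Their median was -0.17, where the median of all detected probes was 0.02 with quartiles of -0.19 and 0.21. The median of the family thus lay inside the quartiles of the array, Ces1d lay just below the lower one, and Ces1b, Ces2c, Ces2a and Ces3b lay far below it.

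**Figure D4:**
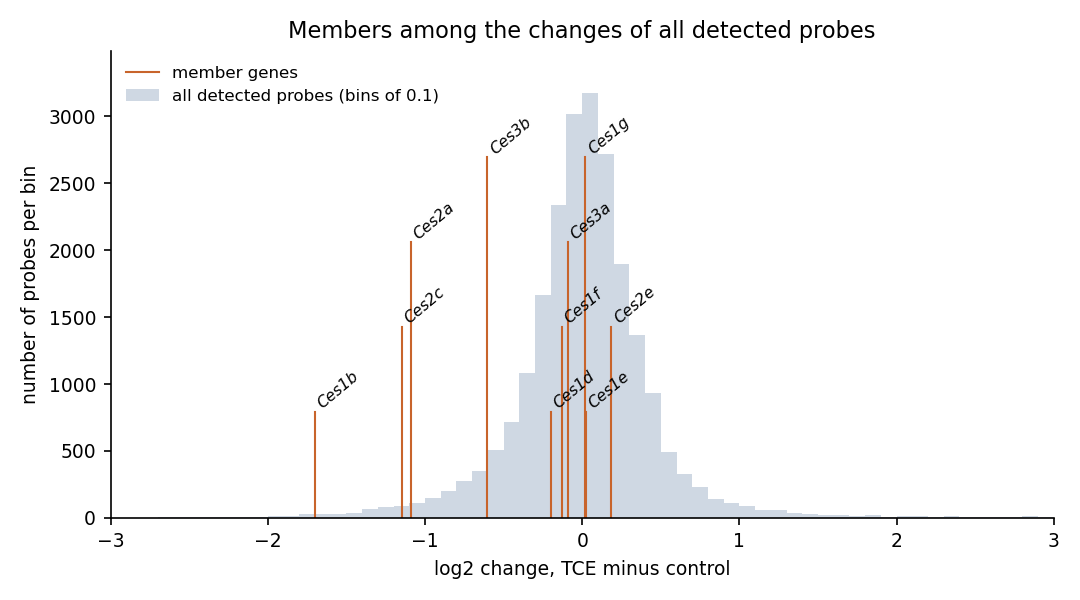
Number of detected probes per bin of 0.1 in log2 change, TCE minus control, from -3 to 3 (bars), with the fitted changes of the 10 genes marked by lines whose height has no meaning. Ces1b, Ces2c, Ces2a and Ces3b lie in the lower tail and the other 6 genes in the centre.

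A further 9 carboxylesterase genes had a probe on the array, of which 4 were detected and 0 called by limma (0 higher and 2 lower at an unadjusted p of 0.05 or less). Of all detected probes 11.0% were higher and 6.95% lower at that p. Ces4a gave 7.43, 8.90 and 8.54 in control mice and 6.51, 6.89 and 6.81 in TCE mice, a change of -1.55 (SE 0.38) with a limma adjusted p of 0.109, the groups being separate. Ces2b gave -0.70 (SE 0.24, limma adjusted p 0.212) and Ces1c -0.34 (SE 0.15, limma adjusted p 0.320), in both with every TCE mouse below every control mouse. Such a separation was found in 10.2% of all detected probes. Ces2g gave -0.09 (SE 0.16, limma adjusted p 0.802). The probes of Ces1a, Ces1h, Ces2f, Ces2h and Ces5a were not well above background on all arrays of a group.

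Promoters of 7 of the 10 genes were at hand from RefSeq on GRCm38.p6, without those of Ces1d, Ces1f and Ces3a. Those of Ces2a, Ces2c and Ces2e are shown because Ces2a was called, Ces2c had a change of like size and Ces2e had not. Each is the stretch of 250 bases before the transcript start, at chr8:104733753-104734002, chr8:104846818-104847067 and chr8:104926010-104926259 on the + strand. Capitals mark ACTTTG, the core of a binding motif of the hepatocyte factor HNF4A, searched on both strands.
Ces2a: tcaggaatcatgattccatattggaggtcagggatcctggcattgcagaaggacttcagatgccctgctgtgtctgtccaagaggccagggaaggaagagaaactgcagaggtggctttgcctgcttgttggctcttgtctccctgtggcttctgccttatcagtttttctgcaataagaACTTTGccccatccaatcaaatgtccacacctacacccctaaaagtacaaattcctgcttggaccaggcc
Ces2c: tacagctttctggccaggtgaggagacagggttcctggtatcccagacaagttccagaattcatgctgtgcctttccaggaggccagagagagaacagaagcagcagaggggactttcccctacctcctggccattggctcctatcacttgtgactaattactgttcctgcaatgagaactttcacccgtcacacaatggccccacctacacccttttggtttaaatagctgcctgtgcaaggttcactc
Ces2e: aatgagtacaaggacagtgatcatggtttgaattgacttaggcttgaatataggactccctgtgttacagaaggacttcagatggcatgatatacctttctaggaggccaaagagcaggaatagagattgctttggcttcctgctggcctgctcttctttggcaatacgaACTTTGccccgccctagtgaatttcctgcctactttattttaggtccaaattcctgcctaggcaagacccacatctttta

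In a local alignment of the promoters, which run 50 bases past the start, Ces2a and Ces2c were identical in 195 of 281 columns (69.4%), Ces2a and Ces2e in 172 of 273 (63.0%) and Ces2c and Ces2e in 169 of 279 (60.6%). Ces1b and Ces1c were the closest pair of the family, with 254 of 297 columns (85.5%), and their changes were -1.70 and -0.34. ACTTTG stood at position -70 from the start in Ces2a and at -80 in Ces2e and was not found in this window of Ces2c. Of all 32851 promoters of this length 14.4% hold it, and so did 2 of the 7.

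Other motifs searched on both strands were TATAAA, found in 2 of the 7 promoters (Ces1g and Ces3b) and in 13.6% of all, CCAAT in 5 of 7 and 37.4%, AGGTCA in 1 of 7 (Ces2a) and 16.3%, AGTTCA in 1 of 7 (Ces1b) and 14.0%, and TGACNNNGC in 0 of 7 and 12.4%. AGGTCA and AGTTCA are half-sites of nuclear receptors, and TGACNNNGC is the core of the antioxidant response element. Ces1b has 2 starts among these promoters and was counted as 1 gene, while the shares of all are per promoter. AGTTCA and CCAAT were found at each of its starts, and its alignment with Ces1c used 1 of them. A match is a run of letters and not a bound site.

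Genes of the factors and pathways that act on carboxylesterases were examined from lists. Of 11 nuclear receptors and related factors, all detected, 0 were called by limma (1 higher and 1 lower at an unadjusted p), and their median change was -0.13. The gene higher at an unadjusted limma p was PXR (Nr1i2), with a change of 0.42 (SE 0.12, limma adjusted p 0.151). In it every TCE mouse was above the control mice. The gene lower by that p was Ahr, with -0.53 (SE 0.18, limma adjusted p 0.207). In Ahr and Nr1h4 (-0.25, limma adjusted p 0.384) every TCE mouse was below the control mice. Of all detected probes 11.0% were higher and 6.95% lower by that p, and 15.5% and 10.2% were separate. Onecut1 had the largest fitted change, -1.68 (SE 0.78, limma adjusted p 0.330), with overlapping groups. CAR (Nr1i3) had 0.13 (SE 0.21, limma adjusted p 0.789), PPARalpha (Ppara) 0.19 (SE 0.14, limma adjusted p 0.535) and HNF4A (Hnf4a) 0.09 (SE 0.12, limma adjusted p 0.759).

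Of 18 detected targets of CAR and PXR, 1 was called higher and 1 lower (8 higher and 2 lower at an unadjusted limma p), with a median change of 0.39. Over all detected probes 1.03% were called higher and 0.383% lower, and at an unadjusted p 11.0% were higher and 6.95% lower. The gene called higher was Akr1b7, an aldo-keto reductase, at 1.98 (SE 0.23, limma adjusted p 0.0157). Its mean log2 signal was only 4.57 in control mice, against 6.55 in TCE mice. The Ces1a probe, which was not detected, had 4.25 in control mice, so the fold of Akr1b7 starts near the floor. The gene called lower was Slco1a4, an uptake transporter of organic anions, with -1.24 (SE 0.19, limma adjusted p 0.0328). The largest fitted change of the list was that of Cyp2b10, at 2.48 (SE 0.54, limma adjusted p 0.0886). It was not called, though every TCE mouse was above every control mouse, as in 15.5% of all detected probes. Of 37 detected PPARalpha targets 21 rose and 0 fell (33 higher and 0 lower at an unadjusted limma p), with a median change of 1.16, led by Cyp4a14, a fatty acid hydroxylase, at 5.42 (SE 0.27, limma adjusted p 0.00109). Among those called, Acot2 had a mean log2 signal of 4.31 in control mice, as dim as Akr1b7. Mogat1 and Crat, also called, had 5.12 and 5.44, where the Ces1h probe, which was not detected, had 5.15. Of 12 detected NRF2 targets 1 rose at 2-fold and 0 fell (6 higher and 0 lower at an unadjusted limma p), with a median change of 0.49. The gene that rose was Gsta2, a glutathione transferase gene, by 1.14 (SE 0.19, limma adjusted p 0.0432).

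Of 20 detected genes of other ester, amide and epoxide hydrolases of liver, 0 were called by limma at 2-fold in either direction (6 higher and 1 lower at an unadjusted p), and their median change was 0.18. At an unadjusted limma p, 11.0% of all detected probes were higher and 6.95% lower. With the adjusted p alone 3 rose and 0 fell, each by less than 2-fold, where 1.43% of all detected probes were higher and 0.576% lower by that rule. The 3 were Nceh1, a cholesteryl ester hydrolase, at 0.98 (SE 0.14, limma adjusted p 0.0302), Pnpla2, the adipose triglyceride lipase, at 0.93 (SE 0.13, limma adjusted p 0.0285), and Mgll, monoacylglycerol lipase, at 0.90 (SE 0.14, limma adjusted p 0.0372). The limma adjusted p of each of these 3, and of Slco1a4 and Gsta2, rose above 0.05 without any 1 of the mice, and that of Akr1b7 in 4 of the 6 fits.

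The livers carried the markers of the labelled tissue. Of 16 hepatocyte markers 15 were detected, 0 were called by limma (1 higher and 1 lower at an unadjusted p) and their median change was -0.02. No gene was called among the markers of Kupffer cells, lymphocytes, liver endothelium, stellate cells and bile duct, of which 1 lymphocyte and 1 stellate cell marker were lower and 0 higher at an unadjusted limma p of 0.05 or less. They were Cd3e, at -0.63 (SE 0.26, limma adjusted p 0.275), and Lrat, at -1.35 (SE 0.27, limma adjusted p 0.0676). By that rule 6.95% of all detected probes were lower and 11.0% higher. The summed signal of the 5 detected lymphocyte markers, of 11, was 16347 to 20011 in control mice and 6100 to 15960 in TCE mice, lower in every TCE mouse. The Cd4 probe gave 87.7% to 90.1% of this sum in control mice and 77.1% to 88.2% in TCE mice, and its change was -0.93 (SE 0.39, limma adjusted p 0.279). Each of the other 4 markers overlapped between the groups, with changes of -0.63 to 0.40. Their sum was 1922 to 2018 in control mice and 1396 to 1885 in TCE mice, again lower in every TCE mouse. The summed signal of the liver endothelial markers was 26626 to 27476 in control mice and 14723 to 28243 in TCE mice. These ranges overlapped, as did the sums of the hepatocyte, Kupffer cell, stellate cell and bile duct markers. The part of the cell markers in the Ces2a result was not tested. In whole liver, fewer cells of a type and less RNA per cell cannot be told apart. Between 23538 and 24968 probes per array were well above background, and the number of arrays limits the precision.

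**Figure D5:**
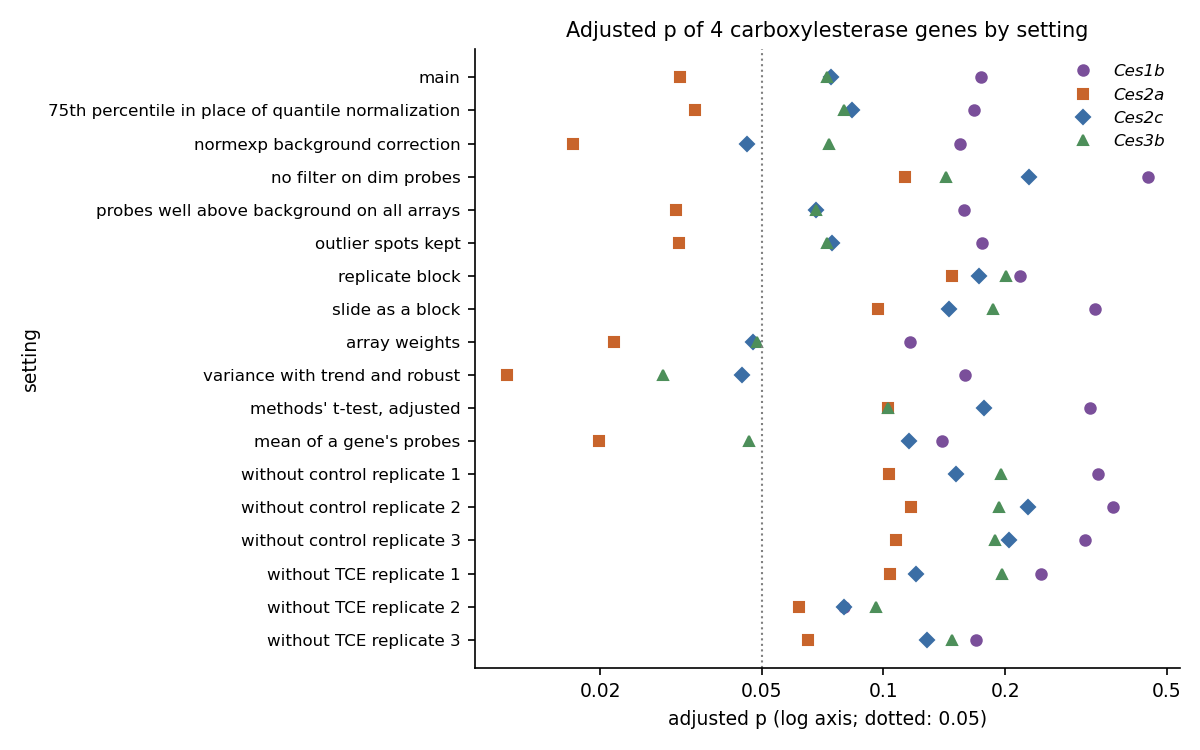
Adjusted p (log axis) of Ces1b, Ces2a, Ces2c and Ces3b under the setting used in the text (main) and 17 alternatives, with a dotted line at 0.05. Ces2a is left of the line under the main setting and 7 alternatives, Ces2c and Ces3b under 3 each and Ces1b under none.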

How the data were processed

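The deposited scanner files hold, for each spot, an intensity that the authors obtained with Feature Extraction 10.7.1.1 after background subtraction and detrending within the array. The authors also deposited a table of group means of quantile-normalized log2 values, used for gene symbols and as an alternative. Its 6 columns of detection flags could not be tied to single mice and were not used. From the intensity, spots flagged as outliers (123 to 189 per array) were set to missing, log2 was taken, spots of a probe were averaged and arrays were quantile normalized over 55681 probes that are not controls. Of these, 22731 were detected and compared between the groups by moderated linear models, with group as the only factor and two-sided p values (limma 3.58.1 under R 4.3.3, statmod 1.5.0). The study's own test was kept as an alternative, since 3 mice per group give a poor estimate of the spread of a single probe. 8 detected probes had a missing value, none of a carboxylesterase. Replicate numbers come from the labels. Numbers in the names of the deposited scanner files run 1 lower than those in the sample titles in both groups, which leaves the same mice with like numbers, and each file was taken as the sample that GEO records. The deviations of mice with the same number correlated at 0.09, 0.007 and -0.09, so the numbers were not taken to pair the mice.

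Probe likeness was the best ungapped segment with 1 for a match and -1 for a mismatch, and promoters were aligned with Biopython 1.88 in Python 3.11.15. Transcripts and the genome were not searched. The genes and lists, and the tests, were chosen with earlier results of these data known. All 10 genes are named, and of each list up to 4 genes with the largest change at an adjusted p of 0.05 or less. Of the receptors and related factors and of the other carboxylesterases any could be named. Cyp2b10, Mogat1, Crat, Cd4, Cd3e and Lrat were named outside this rule, after their values were seen.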

Additional observations from a re-analysis of the deposited data

How the results depend on the processing

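The adjusted p of Ces2a was at or below 0.05 under 7 of 17 alternatives, in a range of 0.0118 to 0.148 by limma. At an adjusted p of 0.05 and 2-fold, 1 carboxylesterase gene was lower in the fit reported. The count was 2 with normexp background correction, array weights, a variance model with trend and robust, and the methods' t-test without adjustment. It was 0 without the filter on dim probes, with the replicate block, with slide as a block, with the methods' t-test after adjustment, and without each of the mice (0 to 0), and 3 with unadjusted limma p, an alternative chosen after seeing the data. With the adjusted p alone the count of 1 became 3 with array weights, with trend and robust and with the unadjusted methods' t-test, 2 with normexp and with the mean of a gene's probes, 4 with unadjusted limma p, and 0 under the same settings as before (0 to 0 without a mouse). No gene was higher under any alternative run.

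Over all detected probes the 321 calls became 96 without the filter, 63 with the replicate block, 177 with slide as a block, 594 and 35 with the methods' t-test before and after adjustment, 750 with unadjusted limma p, and 114 to 245 without a mouse. Under the replicate block the limma adjusted p of Ces2a was 0.148. The median change of the 10 genes kept its sign in all alternatives (-0.25 to -0.07). The sign turned for genes near 0: Ces1e was -0.065 with normexp and -0.061 with array weights and lay between -0.17 and 0.14 without a mouse, Ces1g between -0.054 and 0.12, and Ces1d between -0.33 and 0.0027. Fits without a mouse have fewer samples, block fits estimate more terms from the same mice, and without the filter more probes are tested. Otherwise the cause of these shifts was not tested. Since control mouse 1 was alone on its slide, slide as a block and the fit without that mouse are nearly the same. The change of Ces2a was -1.12 in each, and they are counted as separate alternatives. Of 9 further carboxylesterase genes, 5 were not well above background and were not compared.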
